A study of Rattus norvegicus with 16 samples.

Results

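Cultured rat neurons late in a hydroxyurea exposure were compared with neurons early in it. The late side held the samples treated for 12 h and 24 h (6 samples) and the early side those treated for 2 h and 6 h (6 samples). Samples were assigned by labelled treatment time alone, and these 12 are all the treated samples among the 15 of the study; the 3 untreated samples were kept out of the test and are given as background. All 15 were primary cultures of hippocampal neurons from Sprague-Dawley rat brains of embryonic day 18, with no allele or transgene named in the labels. The agent was hydroxyurea at 5 µM in all 12 treated samples, and each of the 4 times had 3 replicates. Before the drug was added the medium was changed to one whose B27 supplement lacks antioxidants. Time in that medium and age of the culture therefore run with time in the drug, and the 3 cannot be told apart. On days in culture before treatment the descriptions differ, 6 to 7 in one and 6 to 9 in another, and no sample's age is given. The labels give untreated cultures no time after that change. They do not say whether replicates were separate cultures, so the p-values speak only of the variation among these samples, which may be technical; the extraction protocol names tissue, and the other labels name cultured neurons.

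Hydroxyurea inhibits ribonucleotide reductase, the enzyme that makes deoxynucleotides from ribonucleotides, by quenching a radical in its small subunit. In dividing cells the shortage of deoxynucleotides stalls replication and activates checkpoint and p53 signalling, whereas mature neurons do not replicate their genome. The drug also binds metals, can release nitric oxide and is used to treat sickle cell disease. Setting late against early samples asks which transcripts part with the length of exposure.

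RNA was measured on 1-colour Agilent arrays, and every value below is a log2 signal relative to the 75th percentile of its own array, comparable between samples for 1 probe and not between probes. Between 64.7% and 69.7% of probes gave a signal well above background on the 12 arrays, and 0 spots were saturated. The arrays lay on 2 slides, unequally: 2 late and 4 early samples on slide 1, and 4 late and 2 early samples on slide 2. Slide 1 held replicates 1 and 2 of both early times, 12 h replicate 1 and 24 h replicate 3, and slide 2 the others, so replicate number and slide overlap too. Slide was therefore a term in the fit. A difference quoted as late minus early is the mean of the differences within the 2 slides, which need not equal the difference of the plain means. Within a slide the sides hold unequal shares of the replicate numbers, so this mean can also hold differences between replicates. The difference of the plain means has every replicate number equally on both sides. The library of 12 h replicate 3 stood apart: its replicate spots had a median coefficient of variation of 23.1%, against 3.54% to 5.29% on the other late arrays and 3.38% to 7.34% on the early ones, and the first principal component (36.7% of the variance) separated it from the other samples. In the authors' deposited score table each of the 2 columns for 24 h replicates 1 and 3 fitted the scanner file of the other. Both are late samples, so neither side changes. Among markers of neurons, the labelled cell type, 18 of 19 with a probe were well above background on all 12 arrays. The same held for 18 of 19 astrocyte markers, 11 of 11 radial glia markers, 11 of 14 oligodendrocyte lineage markers and 7 of 14 microglia markers, so transcripts of glia were measured as well. In such a culture a smaller share of a cell type and less RNA per cell cannot be told apart.

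No transcript separated late from early exposure at the adjusted threshold. Of 17903 features tested (10961 named genes and 6942 probes without a gene name), 0 passed an adjusted p of 0.05 in limma (0%), and the smallest adjusted p, after Benjamini-Hochberg, was 0.9997. At an unadjusted p under 0.05 there were 366 features (2.04%), of which 285 were higher in late samples (1.59%) and 81 lower (0.452%). After quantile normalization this split was 190 higher and 150 lower, and it was 204 and 202 with replicate number as a block and the numbers of 24 h replicates 1 and 3 exchanged, a setting chosen after the deposited table was seen. The median difference over all features was 0.0142, and 90% of features lay between -0.177 and 0.219. The fitted difference exceeded 1 in absolute value, nominally 2-fold, for 2 unnamed probes, given here because of that size. A_44_P271953 ran from -7.23 to -6.33 in late samples, against -8.83 to -6.99 in early samples (difference 1.06, SE 0.28). It was well above background on 4 of 6 late and 0 of 6 early arrays. It thus passed the filter on dim probes only through the late side, where it is higher. A difference was built in by that, its size rests on dim values, and no fold is given. A_64_P106893 ran from -7.93 to -5.73 in late samples, against -6.76 to -0.91 in early samples (difference -1.33, SE 0.85), and its difference was 0.19 within slide 1 and -2.85 within slide 2. The 95% interval of the difference stayed inside 1.25-fold in either direction for 50.3% of features, inside 1.5-fold for 89.3% and inside 2-fold for 98.2%. Among named genes these shares were 55.6%, 92.2% and 99.1%. For the remaining 321 features a 2-fold difference lies within the interval and was not resolved with 6 samples a side. Of 30309 probes with a value on all 12 arrays, 18549 were well above background on all of them and 7901 on none. Probes detected on 6 of 6 arrays of one side and 0 of 6 of the other numbered 0 in either direction.

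Beneath that threshold, the 12 named genes of higher late signal with the smallest p, taken among genes with the same sign on both slides, had log2 differences of 0.26 to 0.57. They were chosen for their difference, so these values describe them and test nothing. Tnfsf9 spanned -6.10 to -5.56 (median -5.80) in late samples, against -7.01 to -6.06 (median -6.16) in early samples. Tnfsf9 encodes the 4-1BB ligand, a costimulatory cytokine of immune cells; its difference was 0.57 (SE 0.13), and it was well above background on 6 of 6 late and 4 of 6 early arrays. Above every early value lay 5 of the 6 late values. In late samples Svil ran from -5.45 to -5.04 (median -5.31), and in early samples from -5.93 to -5.34 (median -5.52). Svil, which encodes the actin-binding protein supervillin, differed by 0.34 (SE 0.09), and its untreated values of -5.49 to -5.14 overlapped both. C6h14orf28 spanned -3.11 to -2.84 (median -2.98) in late samples, against -3.31 to -3.12 (median -3.19) in early samples. This open reading frame differed by 0.26 (SE 0.07), and its late and early values did not overlap, while the untreated values (-3.31 to -2.88) overlapped both.

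In late samples Ro60 ran from 0.02 to 0.76 (median 0.32), and in early samples from -0.21 to 0.35 (median 0.23). Ro60 encodes an RNA-binding autoantigen that binds Y RNAs; it differed by 0.33 (SE 0.10), and its other probe gave 0.25. Cthrc1 spanned -5.29 to -5.09 (median -5.17) in late samples, against -5.68 to -5.20 (median -5.57) in early samples. Cthrc1, a secreted glycoprotein gene, differed by 0.31 (SE 0.10), and its late values were close together just above most early ones. The largest of the other differences were 0.53 (SE 0.11) for Lpal2, a lipoprotein(a)-like gene, 0.52 (SE 0.15) for Mfsd4b2 of the major facilitator family and 0.51 (SE 0.12) for Tgfbrap1, a protein of the endosomal tethering machinery first named for its binding to TGF-beta receptors. Next were 0.42 (SE 0.13) for the olfactory receptor gene Or10g9b, 0.42 (SE 0.12) for Dnai1, an intermediate chain of axonemal dynein, and 0.40 (SE 0.12) for Grxcr1, a glutaredoxin-like gene of hair cells. Asb11, an adaptor of ubiquitin ligases, differed by 0.32 (SE 0.10). Late and early values of these 7 genes overlapped.

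**Figure D1:**
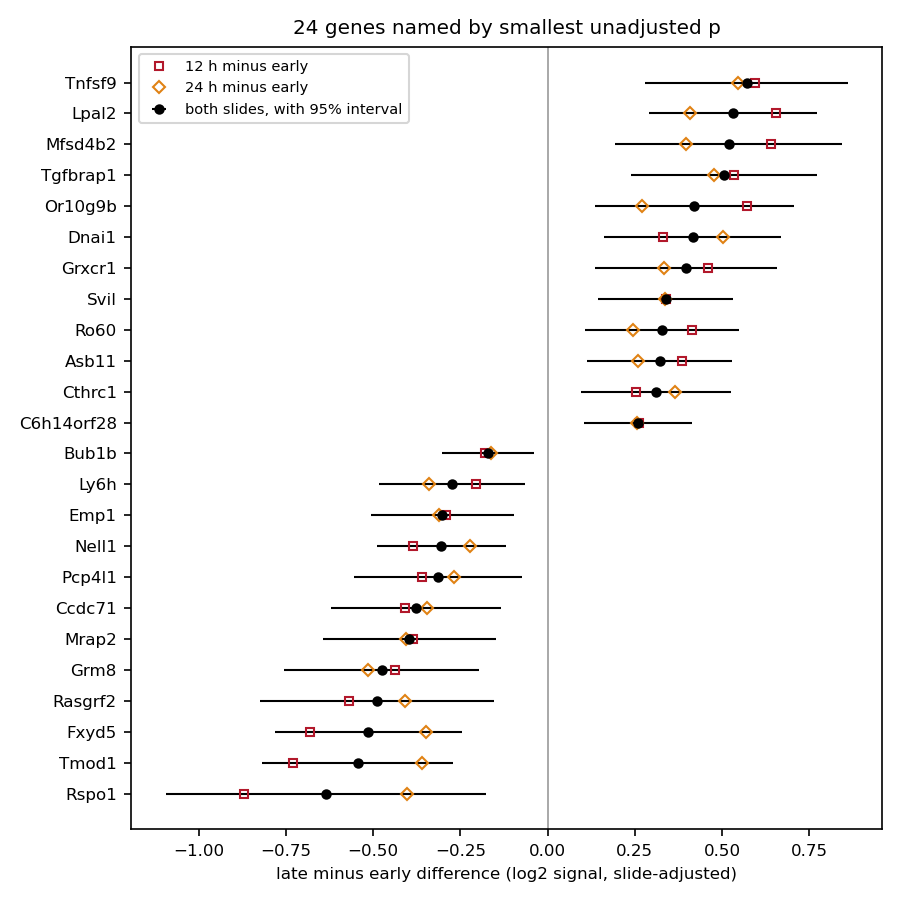
Late minus early difference of the 24 named genes (x axis, log2 signal, slide-adjusted): black points with bars are the fitted difference with its 95% interval, red squares the 12 h samples and orange diamonds the 24 h samples, each minus the early mean. Differences run from -0.64 (Rspo1) to 0.57 (Tnfsf9), the intervals shown are not adjusted for 17903 features, and both late times lie on the same side of 0 for all 24 genes, a property helped by the way they were chosen.

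The 12 genes of lower late signal, chosen by the same rule, had differences of -0.64 to -0.17. Tmod1 spanned -6.98 to -6.11 (median -6.24) in late samples, against -6.17 to -5.77 (median -5.86) in early samples. Tmod1 encodes tropomodulin, which caps the pointed ends of actin filaments; it differed by -0.54 (SE 0.13). One library, 12 h replicate 1 at -6.98, lay far below the other late values, and untreated samples were at -5.96 to -5.88, within the early range. In late samples Nell1 ran from -1.91 to -1.45 (median -1.67), and in early samples from -1.58 to -1.22 (median -1.46). Nell1, a secreted protein that binds protein kinase C, differed by -0.30 (SE 0.09), and its untreated values (-1.52 to -1.31) lay within the early range as well. Grm8 spanned -6.72 to -5.72 (median -5.96) in late samples, against -6.24 to -5.43 (median -5.71) in early samples. Grm8, a presynaptic metabotropic glutamate receptor, differed by -0.48 (SE 0.13) and was well above background on 4 of 6 late and 6 of 6 early arrays. In late samples Ccdc71 ran from -4.04 to -3.56 (median -3.82), and in early samples from -3.58 to -3.11 (median -3.48). Its difference was -0.38 (SE 0.11), and only the highest late value entered the early range.

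Among transcripts of synapse and signalling on the same side, Ly6h, a membrane-anchored protein that binds nicotinic receptors, differed by -0.27 (SE 0.10), and Pcp4l1, a relative of the calmodulin regulator Pcp4, by -0.31 (SE 0.11). Mrap2, an accessory protein of melanocortin receptors, differed by -0.40 (SE 0.11), and the exchange factor for Ras Rasgrf2 by -0.49 (SE 0.15). The ion pump regulator Fxyd5 differed by -0.51 (SE 0.12), Rspo1, an amplifier of Wnt signalling, by -0.64 (SE 0.21) and the membrane protein gene Emp1 by -0.30 (SE 0.09). Bub1b, a kinase of the spindle checkpoint, had the smallest difference of the set at -0.17 (SE 0.06), with late values of -2.52 to -2.26 and early values of -2.33 to -2.15. Of the 24 genes, 9 were not well above background on all 12 arrays, and 7 of these passed the filter on dim probes only through the side where they are higher, so a difference was built in and its size rests on dim values. That side was the late one for Tnfsf9, Mfsd4b2 (5 of 6 late and 2 of 6 early arrays) and Grxcr1 (4 of 6 late and 2 of 6 early arrays). It was the early one for Grm8, Rasgrf2 (2 of 6 late and 5 of 6 early arrays), Fxyd5 (4 of 6 late and 5 of 6 early arrays) and Rspo1 (3 of 6 late and 6 of 6 early arrays). The untreated mean lay nearer the late mean for 13 genes and nearer the early mean for 11. With normexp background correction 18 of the 24 differences moved by more than 1.5 times, none with a change of sign, and that of Rspo1 was -0.11. Without the slide term 7 did, and again 0 changed sign. Among them Lpal2 stood at 0.28 and Fxyd5 at -0.20, and the late median of Fxyd5 (-5.97) lay above its early median of -6.02.

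All 6 late values lay on 1 side of all 6 early values for 5 features (0.0279%), 4 of them higher in late samples. These are named because their values do not overlap, so the separation is a description. One was C6h14orf28, given above. Atg16l2, a relative of the autophagy gene Atg16l1, was at -2.51 to -2.15 (median -2.39) in late samples, against -2.65 to -2.52 (median -2.55) in early samples, a difference of 0.18. Tmem79, a transmembrane protein gene, was at -3.45 to -3.17 (median -3.35) in late samples, against -3.64 to -3.48 (median -3.54) in early samples (0.19). The unnamed probe A_64_P140556 was at -0.91 to -0.74 (median -0.89) in late samples, against -1.52 to -0.96 (median -1.09) in early samples (0.30). Midn, which encodes midnolin, a nuclear protein that carries short-lived proteins to the proteasome, was the 1 feature with all late values lower: 2.37 to 2.70 (median 2.54) in late samples, against 2.70 to 2.85 (median 2.77) in early samples (-0.20). At 2 decimals its highest late and lowest early values coincide. In all 5 the untreated mean lay between the late and the early mean.

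**Figure D2:**
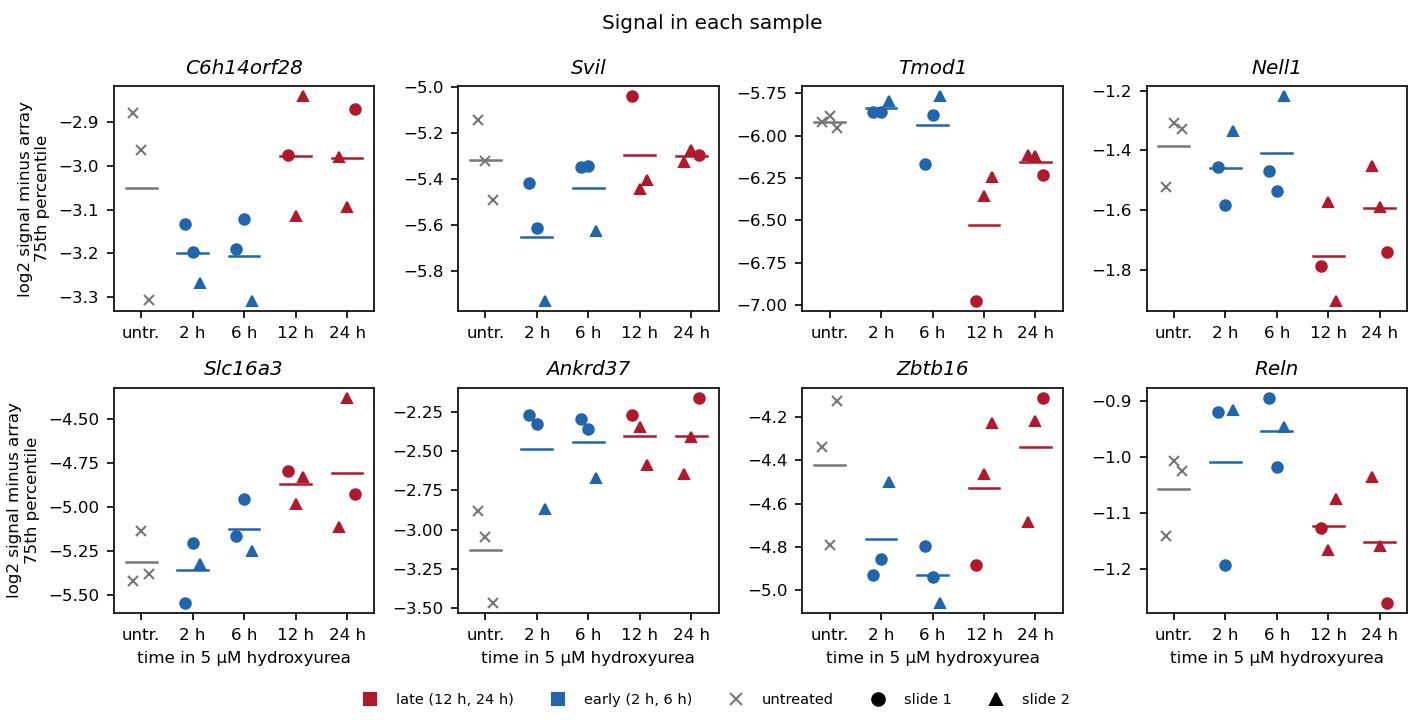
Signal of 8 genes in every sample (y axis, log2 relative to the array's 75th percentile) by time in hydroxyurea (x axis; untreated samples at the left), with horizontal bars at group means, red for late, blue for early and grey crosses for untreated samples, circles for slide 1 and triangles for slide 2. C6h14orf28 is the 1 gene shown whose late values (-3.11 to -2.84) clear its early values (-3.31 to -3.12), and untreated Ankrd37 (-3.47 to -2.88) lies below all 12 treated samples.

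Of the drug's target enzyme, both subunits with a measured gene differed by less than the spread between samples. For single genes, late and early labels were permuted within slides in all 225 ways (exact permutation test, two-sided), whose smallest possible p is 0.00444. For genes that were picked by p the permutation p is a description. The permutation did not keep replicate numbers together, and these are unequally shared within slides. Its p-values can therefore hold differences between replicates too. Of the 70 genes named from lists or fixed, 19 had differences of opposite sign within the 2 slides, and without the slide term 27 moved by more than 1.5 times and 2 changed sign. Rrm1 spanned -4.55 to -3.88 (median -4.08) in late samples, against -4.25 to -4.08 (median -4.13) in early samples. Rrm1, the large subunit, differed by 0.02 (SE 0.11), with a 95% interval of -0.22 to 0.26 (exact permutation p = 0.844). Its sign turned to -0.03 with quantile normalization. In late samples Rrm2 ran from 2.58 to 3.38 (median 3.13), and in early samples from 2.92 to 3.31 (median 3.22). The small subunit Rrm2, which carries the radical that the drug quenches, differed by -0.11 (SE 0.13), with an interval of -0.39 to 0.17 (exact permutation p = 0.511), and its other probe gave 0.04. Rrm2b, a small subunit induced by p53 that also serves resting cells, had a signal above background on 0 of 12 arrays and was not tested. The list of deoxynucleotide supply had 7 members higher and 8 lower of 15 (median -0.012), and 0 passed. Dut, which removes dUTP, was at 0.09 (SE 0.10). The thymidylate synthase gene Tyms was at -0.09 (SE 0.16) and Samhd1, which breaks deoxynucleotides down, at 0.06 (SE 0.12).

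Genes of p53 signalling, which stalled replication activates in dividing cells, and of the cell cycle held 0 members past the threshold. Of 20 p53 and DNA damage genes 8 were higher and 12 lower, with a median of -0.0215. Cdkn1a spanned 2.83 to 3.46 (median 3.19) in late samples, against 2.54 to 3.35 (median 2.91) in early samples. Cdkn1a, the p53-induced inhibitor of cyclin-dependent kinases p21, differed by 0.19 (SE 0.15) with an interval of -0.14 to 0.52 (exact permutation p = 0.276), while its other probe gave -0.04. Tp53inp1, a p53-induced nuclear protein, was at 0.30 (SE 0.13) and the antiproliferative gene Btg2 at 0.18 (SE 0.08), the 2 genes of smallest p in the list. Of 37 cell cycle genes 17 were higher and 20 lower (median -0.00274), with the spindle assembly factor Tpx2 at -0.16 (SE 0.09) beside Bub1b.

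Genes induced by hypoxia-inducible factors (HIF), transcription factors that hydroxylases keep low when oxygen and iron suffice, and genes of glycolysis were examined next. Their promoters are shown for the 2 members the naming rule picked, because HIF binds the core motif ACGTG. The sequences are RefSeq's for build GRCr8, 250 bases before to 50 after the annotated start, in the direction of the gene, with every match of the motif or its reverse complement in capitals. The motif was found in 19.3% of the 33469 promoters of this length and in 20 of 35 promoters of the list. Ankrd37 (chr16:53001257-53001556, plus strand) has 4 matches, 2 of which overlap as 1 palindrome, and Slc16a3 (chr10:106712078-106712377, plus strand) has 0 in this window.
Ankrd37 promoter: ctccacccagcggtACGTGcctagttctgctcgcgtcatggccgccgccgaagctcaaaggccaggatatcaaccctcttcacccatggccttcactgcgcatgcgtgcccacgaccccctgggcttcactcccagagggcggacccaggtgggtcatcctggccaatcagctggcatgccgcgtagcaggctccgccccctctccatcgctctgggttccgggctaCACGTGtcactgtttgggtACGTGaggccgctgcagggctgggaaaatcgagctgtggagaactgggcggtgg
Slc16a3 promoter: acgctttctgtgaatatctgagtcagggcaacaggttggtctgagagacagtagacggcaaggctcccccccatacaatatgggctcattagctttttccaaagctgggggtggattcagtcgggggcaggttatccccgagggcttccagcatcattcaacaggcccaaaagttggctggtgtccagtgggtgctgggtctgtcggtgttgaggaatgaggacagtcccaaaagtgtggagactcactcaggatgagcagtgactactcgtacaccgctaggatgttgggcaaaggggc

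Ankrd37 spanned -2.65 to -2.16 (median -2.38) in late samples, against -2.87 to -2.27 (median -2.34) in early samples. Ankrd37, an ankyrin-repeat gene induced in hypoxia, had untreated values of -3.47 to -2.88, so all 12 treated values lay above all 3 untreated ones while late and early overlapped. Its late minus early difference was 0.18 (SE 0.08) (exact permutation p = 0.0178) and rested on the slide term, without which it was 0.06. Its means at 2, 6, 12 and 24 h were -2.49, -2.44, -2.40 and -2.41. In late samples Slc16a3 ran from -5.11 to -4.38 (median -4.88), and in early samples from -5.54 to -4.95 (median -5.22). Slc16a3, the lactate exporter MCT4, differed by 0.41 (SE 0.14) (exact permutation p = 0.0222), and its untreated values were -5.42 to -5.13. Its time means were -5.36, -5.12, -4.87 and -4.80, higher at each later time, with late and early samples overlapping at the edge. Slc16a1, a carrier of the same family, was on the other side at -0.23 (SE 0.11). Vegfa spanned 1.70 to 2.46 (median 2.05) in late samples, against 1.59 to 2.20 (median 1.99) in early samples. The angiogenic factor Vegfa differed by 0.11 (SE 0.14), and its 3 other probes gave 0.07, 0.14 and 0.16. Over the list 23 of 40 genes were higher and 17 lower, with a median of 0.0247, against 56.0% higher and a median of 0.0142 over all features, and 0 passed. The enzymes Pgk1 (-0.06 (SE 0.07)), Ldha (0.08 (SE 0.07)), Eno1 (0.03 (SE 0.08)) and Aldoa (-0.04 (SE 0.09)) differed by less than 0.1, while the glycolytic activator Pfkfb3 stood at 0.31 (SE 0.19) and hexokinase 2 (Hk2) at 0.20 (SE 0.12).

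Stress pathways showed small differences on either side, with 0 members past the threshold in each. The antioxidant and NRF2 list had 17 members higher and 12 lower of 29 (median 0.00654), and the sign of that median turned with quantile normalization and with the Z score. Hmox1 spanned -0.95 to -0.17 (median -0.82) in late samples, against -1.16 to -0.41 (median -0.86) in early samples. Hmox1, which breaks down heme, differed by 0.18 (SE 0.17) (exact permutation p = 0.364), from -0.14 within slide 1 and 0.49 within slide 2, and glutathione reductase (Gsr) by -0.14 (SE 0.12). The integrated stress response, a block of translation initiation with its transcription programme, had 11 members higher and 14 lower of 25 (median -0.0206). Its factor Ddit3 was at 0.06 (SE 0.12), the glutathione-degrading enzyme gene Chac1 at 0.20 (SE 0.11) and the pseudokinase gene Trib3 at -0.20 (SE 0.12). Chaperones had 10 members higher and 14 lower of 24 (median -0.0427), with the small heat shock protein Cryab at -0.15 (SE 0.08) and the endoplasmic reticulum chaperone Hsp90b1 at -0.21 (SE 0.19). Without 12 h replicate 3, whose Hsp90b1 value of 0.28 lay below the other late values, that difference was -0.07. Genes of cholesterol and fatty acid synthesis had 9 members higher and 21 lower of 30 (median -0.0375), with Fdps of the isoprenoid branch at -0.14 (SE 0.10).

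Apoptosis regulators had 13 members higher and 9 lower of 22 (median 0.0147), and the caspase inhibitor Xiap was at 0.25 (SE 0.18) with 0.02 from its other probe. The antiapoptotic gene Bcl2l1 was at -0.10 (SE 0.08), with other probes from -0.30 to 0.13. Iron handling, of interest because the drug binds metals, had 9 members higher and 6 lower of 15 (median 0.0108), and its hormone gene Hamp was at 0.22 (SE 0.12). Nitric oxide and cGMP genes had 8 members higher and 8 lower of 16 (median 0.00989), with the guanylate cyclase subunits Gucy1a1 at 0.21 (SE 0.11) and Gucy1a2 at 0.14 (SE 0.14). With quantile normalization both of those medians turned negative. Lysosome and autophagy genes had 18 members higher and 11 lower of 29 (median 0.0443), with Lamp1, a lysosomal membrane protein, at 0.11 (SE 0.10) and the autophagy conjugate Atg12 at 0.10 (SE 0.09). The respiratory chain had 11 members higher and 23 lower of 34 (median -0.0276), with Atp5po of the ATP synthase at -0.15 (SE 0.07) and Sdhc of complex II at -0.15 (SE 0.11). Ribosomal protein genes had 26 members higher and 28 lower of 54 (median -0.00744), a median that turned to 0.00276 with normexp background correction. Of these, Rpl8 was at 0.12 (SE 0.10) and Rps21 at -0.23 (SE 0.20). Among interferon and inflammation genes there were 7 members higher and 9 lower of 16 (median -0.0114), which turned to 0.00615. There Stat2, a mediator of interferon signalling, was at -0.09 (SE 0.08) and the antiviral gene Rsad2 at 0.12 (SE 0.15).

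Programmes that follow time and medium held 0 members past the threshold. Circadian clock genes had 11 members higher and 6 lower of 17 (median 0.0541), with the core activator Clock at 0.33 (SE 0.17), its relative Npas2 at -0.13 (SE 0.08), the repressor Per1 at 0.10 (SE 0.11) and the output factor Dbp at 0.10 (SE 0.08). The other probe of Clock gave 0.17 and that of Npas2 -0.01. Glucocorticoid-responsive genes had 10 members higher and 10 lower of 20 (median 0.0179), which turned to -0.00362 with quantile normalization. Zbtb16 spanned -4.88 to -4.12 (median -4.35) in late samples, against -5.06 to -4.50 (median -4.89) in early samples. Zbtb16, a glucocorticoid-induced zinc finger factor, differed by 0.38 (SE 0.15) (exact permutation p = 0.04), and its untreated mean of -4.42 lay nearer the late mean of -4.43 than the early mean of -4.85. The cell cycle inhibitor Cdkn1c was at 0.41 (SE 0.22). In late samples Fkbp5 ran from -0.37 to 0.46 (median 0.36), and in early samples from 0.40 to 0.51 (median 0.45). Fkbp5, a chaperone partner of the glucocorticoid receptor, differed by -0.18 (SE 0.13), and 1 late library, 12 h replicate 3, lay apart at -0.37; without it the difference was -0.09. FOXO and nutrient withdrawal genes had 7 members higher and 7 lower of 14 (median -0.00203), with the insulin receptor Insr at 0.23 (SE 0.12) (-0.04 by its other probe), Foxo3 at 0.23 (SE 0.14) and the glucose-sensing gene Txnip at 0.11 (SE 0.14). That median turned to 0.0138 with normexp background correction.

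Activity-regulated and synaptic genes, which report the state of the neurons, were mixed in sign. Immediate early genes had 11 members higher and 16 lower of 27 (median -0.0184), with Fos at -0.10 (SE 0.14), Bdnf at -0.02 (SE 0.11) and the activin subunit Inhba at 0.26 (SE 0.10). With normexp background correction Fos stood at 0.00618 and Bdnf at 0.00726, and the list's median was 0.00726. Genes of glutamate receptors and the postsynapse had 19 members higher and 19 lower of 38 (median 0.00409), a median that turned negative with quantile normalization, the Z score and the deposited scores. Beside Grm8, the adhesion gene Lrrtm4 was at -0.25 (SE 0.11), and 0.07 by its other probe. GABA receptor and channel genes had 15 members higher and 22 lower of 37 (median -0.0397). Kcnj6 spanned -4.81 to -4.30 (median -4.66) in late samples, against -4.58 to -4.26 (median -4.33) in early samples. Kcnj6, a subunit of the potassium channels opened by inhibitory receptors, differed by -0.27 (SE 0.10) (exact permutation p = 0.0356). In late samples Kcnj3 ran from -1.35 to -0.30 (median -0.92), and in early samples from -1.29 to -0.70 (median -1.19). Kcnj3, its partner subunit, differed in the other direction, by 0.39 (SE 0.14) (exact permutation p = 0.0533). Late and early values overlapped for both. Presynaptic release genes had 11 members higher and 18 lower of 29 (median -0.00963), with the vesicle protein Sv2a at -0.18 (SE 0.09) and the adhesion molecule Nrxn3 at -0.18 (SE 0.10) (0.04 by its other probe). Neurotrophic and peptide signalling had 6 members higher and 17 lower of 23 (median -0.0285). Nptx1, a pentraxin that clusters glutamate receptors, was at -0.23 (SE 0.09) (exact permutation p = 0.00889), and the growth factor Fgf1 at 0.23 (SE 0.12).

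**Figure D3:**
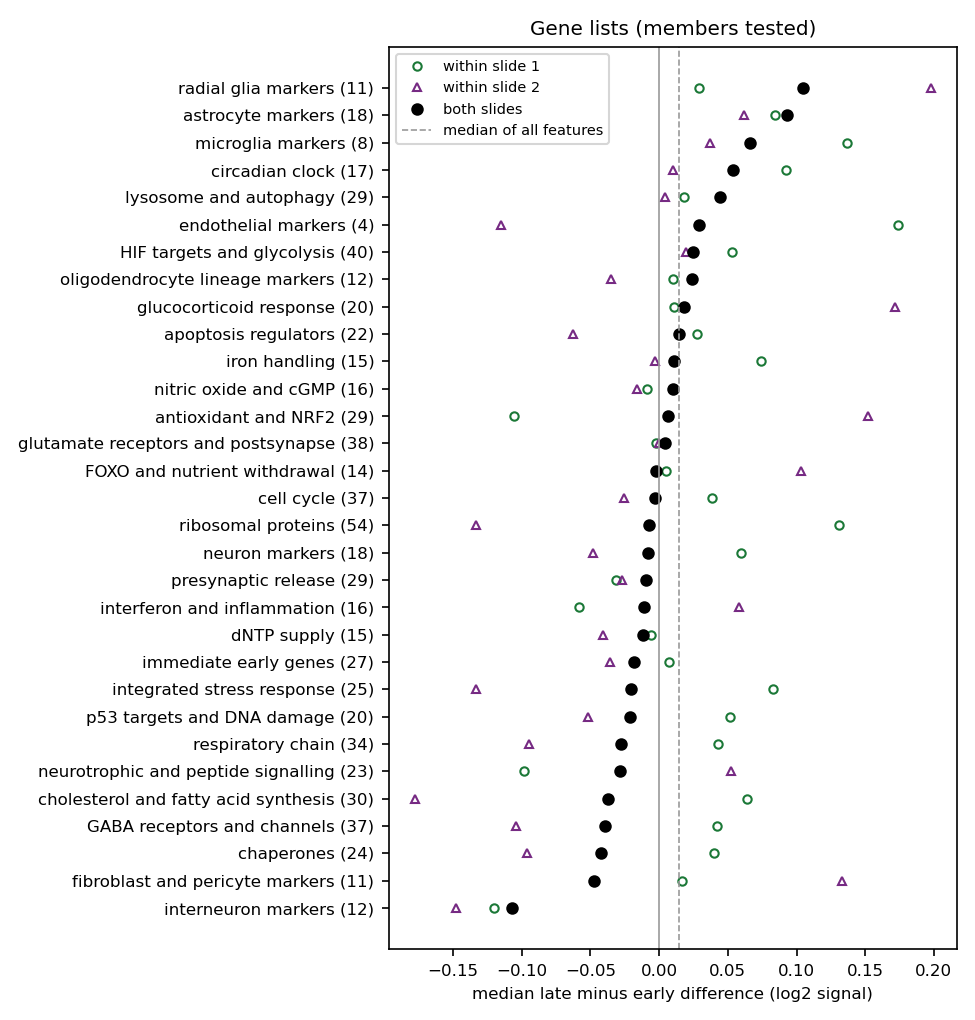
Median late minus early difference (x axis, log2 signal) of the tested members of 31 gene lists (y axis, number of members in brackets): black points are the slide-adjusted medians, green circles and purple triangles those within slide 1 and slide 2, and the dashed line is the median of all features (0.0142). Medians run from -0.107 (interneuron markers) to 0.105 (radial glia markers), and the values within the 2 slides lie on opposite sides of 0 for 17 lists.

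Markers of cell types gave the largest list medians, at both ends of the range. Interneuron markers had 2 members higher and 10 lower of 12 (median -0.107), with 2 members at an unadjusted p under 0.05, against 2.04% of all features, and 0 past the threshold in limma. The p53 (20 tested), HIF (40), immediate early (27), glutamate receptor (38) and GABA receptor (37) lists had 2 such members each as well. The remaining lists had fewer. Reln spanned -1.26 to -1.04 (median -1.14) in late samples, against -1.19 to -0.89 (median -0.93) in early samples. Reln, an extracellular protein of Cajal-Retzius cells and interneurons, differed by -0.18 (SE 0.07) (exact permutation p = 0.0133). In late samples Calb2 ran from 1.25 to 1.58 (median 1.37), and in early samples from 1.19 to 1.79 (median 1.54). The calcium buffer calretinin (Calb2) differed by -0.21 (SE 0.09) (exact permutation p = 0.04), and late and early values of both genes overlapped. The peptide gene Sst was at -0.22 (SE 0.12), the GABA transporter gene Slc32a1 at -0.16 (SE 0.14), the interneuron transcription factor Lhx6 at -0.18 (SE 0.11) and the GABA-synthesising enzymes Gad1 and Gad2 at -0.13 (SE 0.12) and -0.06 (SE 0.15). On the other side were Dlx1 at 0.22 (SE 0.17) and Pvalb at 0.14 (SE 0.25). The list's median was -0.12 within slide 1 and -0.148 within slide 2, and over all alternative settings it ran from -0.153 to -0.0234. The list score of a sample is the mean deviation of the members from their mean over the 12 samples. It ran from -0.12 to 0.11 in late and from -0.13 to 0.13 in early samples, so the sides overlapped. The lowest scores were those of replicate 1 at 2, 6 and 12 h (-0.13, -0.09 and -0.12) and of 24 h replicate 3 (-0.08). All of these lay on slide 1, where the early samples were replicates 1 and 2. The part of replicate in the slide 1 median was not tested.

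Astrocyte markers had 15 members higher and 3 lower of 18 (median 0.0934), with the gap junction gene Gja1 at 0.15 (SE 0.08), the tight junction gene Cldn10 at 0.22 (SE 0.13), the glutamate transporters Slc1a2 at 0.11 (SE 0.11) and Slc1a3 at 0.07 (SE 0.11) and the water channel Aqp4 at 0.12 (SE 0.12). Gfap spanned -1.66 to -0.72 (median -1.03) in late samples, against -1.58 to -0.97 (median -1.16) in early samples. Gfap, the astrocytic intermediate filament, was on the other side at -0.09 (SE 0.12), and its sign turned without the slide term. The astrocyte median was 0.0843 within slide 1 and 0.0621 within slide 2, and over all alternative settings it ran from 0.0495 to 0.108. The astrocyte score ran from -0.12 to 0.09 in late and from -0.11 to 0.12 in early samples. Radial glia markers had 8 members higher and 3 lower of 11 (median 0.105), with the Notch target Hes5 at 0.24 (SE 0.14), the receptor Notch1 at 0.10 (SE 0.08), the filament gene Nes at 0.12 (SE 0.10) and Sox2 at -0.02 (SE 0.12). The radial glia median was 0.0289 within slide 1, 0.198 within slide 2 and 0.0328 without the slide term. Over all alternative settings it ran from 0.0145 to 0.198. The lowest radial glia scores were those of replicate 3 at 2, 6 and 12 h (-0.21, -0.24 and -0.15) and of 24 h replicate 1 (-0.26). For astrocytes they were those of replicate 3 at 2 and 6 h (-0.11 and -0.10) and of 24 h replicate 1 (-0.12). All of these lay on slide 2, where the early samples were of replicate 3 only. The part of replicate in the medians of these lists was not tested. Microglia markers had 6 members higher and 2 lower of 8 (median 0.0661), with Cd68 at 0.17 (SE 0.10) and the growth factor receptor Csf1r at 0.13 (SE 0.12) (-0.08 by its other probe, well above background on 4 of 12 arrays). The microglial genes Itgam, C1qc, Ptprc and Fcgr3a were well above background on 0 of 12 arrays.

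Oligodendrocyte lineage markers had 6 members higher and 6 lower of 12 (median 0.0238), with Pdgfra of the precursors at 0.20 (SE 0.12) and the lineage factor Sox10 at 0.33 (SE 0.20). Neuron markers had 8 members higher and 10 lower of 18 (median -0.0085), a median that turned to 0.0059 with normexp background correction. In that list Neurod2, a neuronal transcription factor, was at -0.15 (SE 0.09) and Slc17a7, the vesicular glutamate transporter, at 0.17 (SE 0.10). Fibroblast and pericyte markers had 5 members higher and 6 lower of 11 (median -0.0478), turning to 0.0131 with normexp background correction, with the smooth muscle actin gene Acta2 at 0.17 (SE 0.10) and Mgp at -0.25 (SE 0.17). Endothelial markers had 3 members higher and 1 lower of 4 (median 0.0293), and Cldn5, Flt1, Tek, Esam and Emcn were well above background on 0 of 12 arrays. Among the measured ones Kdr, a receptor of Vegfa, was at -0.42 (SE 0.16) (exact permutation p = 0.0356) and the cadherin Cdh5 at 0.21 (SE 0.15). Without the slide term Kdr stood at -0.29. Its lowest treated values were those of replicate 1 at 2, 6 and 12 h (-3.325, -3.511 and -3.669) and of 24 h replicate 3 (-3.458). These samples lay on slide 1, and the part of replicate in the difference of Kdr was not tested. Scores of late and early samples overlapped for all 31 lists, and the part of cell composition in any gene's difference was not tested.

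**Figure D4:**
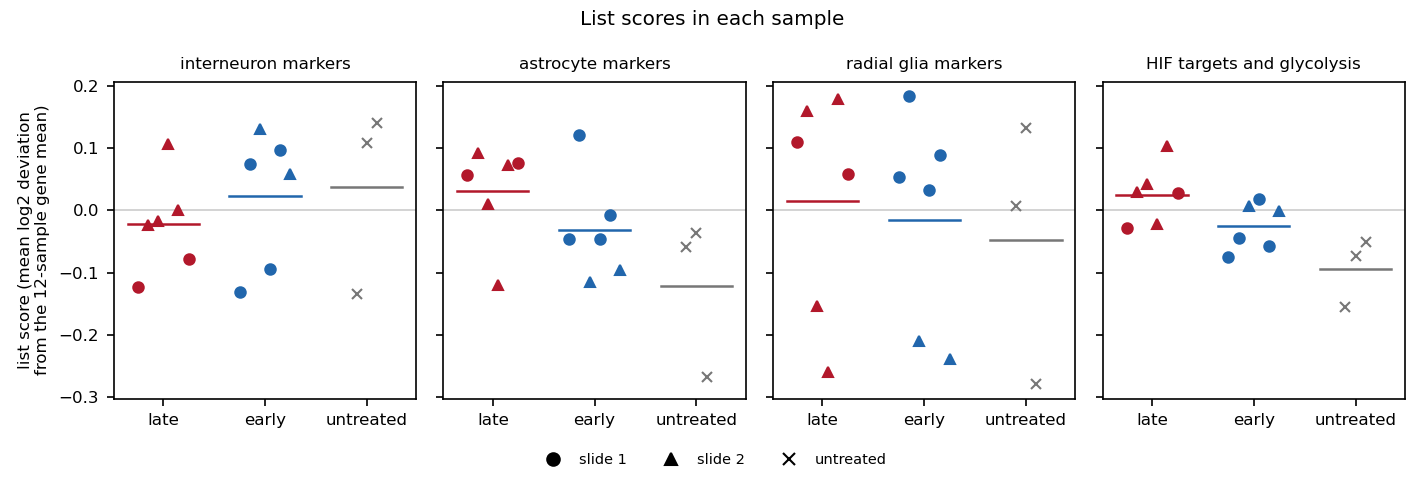
List score of each sample (y axis, mean log2 deviation of the members from their 12-sample means) for 4 lists, with late samples (red) left of early (blue) and untreated (grey crosses) samples, circles for slide 1, triangles for slide 2 and horizontal bars at group means. Late and early scores overlap in every panel; interneuron scores run from -0.12 to 0.11 in late and -0.13 to 0.13 in early samples.

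The 2 slides gave the comparison separately, with no sample in common but with replicate numbers unequally shared. Samples numbered 2 were early on slide 1 and late on slide 2. A difference tied to that number would enter the 2 values with opposite sign, so they need not be independent repeats. Its part was not tested. Across the 17903 features the difference within slide 1 and that within slide 2 correlated with r = -0.291 (Pearson, across features that share arrays and scaling, given as a description), and without 12 h replicate 3 with r = -0.327. The sign was the same on both slides for 38.4% of features and for 38.7% of named genes (4242 of 10961). The 24 genes named above were drawn from that group. Lists whose medians were on opposite sides included ribosomal protein genes, at 0.131 within slide 1 and -0.133 within slide 2, antioxidant genes, at -0.106 and 0.152, and cholesterol genes, at 0.0641 and -0.178. A slide effect passed the threshold for 6 features in limma. Over the 4 times, both late means lay above both early means for 3707 features and below for 2321, together 33.7%. Spread differed between the sides: the median SD over features was 0.221 in late samples, against 0.143 in early samples, and 0.178 in late samples without 12 h replicate 3.

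**Figure D5:**
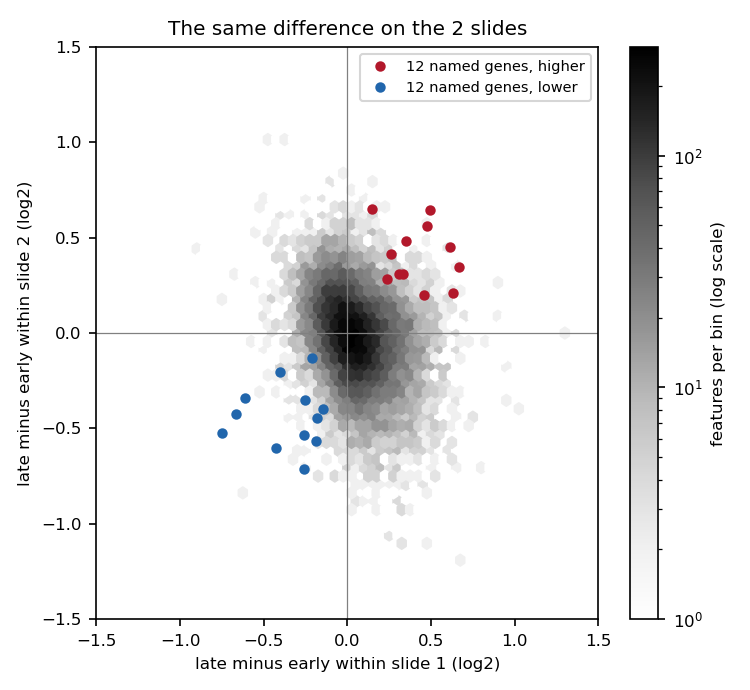
Late minus early difference within slide 1 (x axis, log2) against that within slide 2 (y axis, log2) for all features (grey bins, darker for more features on a log scale; 12 features lie outside the axes), with the 12 named higher genes in red and the 12 named lower genes in blue. The cloud tilts downward (r = -0.291), and the named genes lie in the corners of shared sign by the rule that chose them.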

How the data were processed

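Values came from scanner files deposited by the authors: spot intensity (the background-subtracted processed signal) from Agilent Feature Extraction 11.5.1.1, protocol GE1_1105_Oct12, on a design of rat build rn4, per the file headers. The series table deposited by the authors holds a score per array, which was checked to be the standardised log of that intensity and was an alternative. Control spots (4259 of 62976) and outlier flags were left out, spots of a probe were averaged, and log2 of the deposited signal minus the 75th percentile of the array's non-control spots was tested. Probe accessions matched a RefSeq table without versions for 18758 of 30367 probes; the others kept their probe IDs. The probe with the highest mean over the 12 samples stood for a gene, and dim probes were dropped unless all arrays of 1 or more time groups had them well above background.

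Late minus early was fitted with limma 3.58.1 in R 4.3.3 (12 samples, slide as a block, degrees of freedom 9 residual plus 3.54 prior; two-sided), with Benjamini-Hochberg adjustment over 17903 features, after tests on simulated data. Figures used matplotlib 3.10.9. Alternatives covered the slide, scaling, background correction, filters, weights and single samples left out. The files hold no mean spot signal, so normexp used the median spot signal and median background with an offset of 50. Samples and 31 gene lists were chosen with earlier results of these data known. Named were the 12 higher and 12 lower genes of smallest p with 1 sign on both slides, the 2 of smallest p in each list and 17 fixed genes (Top2a has no named probe); other list members are examples chosen after their values were seen. Some genes that this rule names are not reported here. Untreated replicate 1, on 2 arrays, was averaged.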

Additional observations from a re-analysis of the deposited data

Results flagged for a closer look

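In 254 sets of 6 values (late or early samples, for each named gene, list score and array measure), 24 values stood further from the rest of their set than Dixon's 95% limit of 0.625 of the range. Chance flags about 1 in 20 such sets. Of the 24, 9 belonged to 12 h replicate 3.

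In late samples, 12 h replicate 3 was the lowest for Hsp90b1 at 0.28 (the others 1.27 to 1.49), Rps21 at 4.69 (5.62 to 6.01), Stat2 at 0.38 (0.66 to 0.78) and Fkbp5 at -0.37 (0.25 to 0.46). It was the highest for Dut at -0.59 (the others -1.07 to -0.89) and Rpl8 at 6.75 (6.16 to 6.38), for the score of presynaptic release genes at 0.159 and for that of neuron markers at 0.187. Its replicate spots varied by a median of 23.1%. The late sample 12 h replicate 1 was the lowest for Tmod1 at -6.98 (the others -6.36 to -6.11) and the highest for Xiap at -4.35 (-5.47 to -5.14).

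In early samples, 6 h replicate 3 was the lowest for Tnfsf9 at -7.01 (the others -6.24 to -6.06), Dnai1 at -6.33 (-5.75 to -5.57) and Tp53inp1 at -3.53 (-3.02 to -2.72), and its replicate spots varied by a median of 7.34%. The sample 2 h replicate 3 was the lowest for Mfsd4b2 at -7.01 (the others -6.51 to -6.24) and Ro60 at -0.21 (0.22 to 0.35), and the highest for Ccdc71 at -3.11 (-3.58 to -3.42). Tmod1 at -6.17 and Rrm2 at 2.92 were lowest in 6 h replicate 1. Kcnj6 was lowest at -4.58 and Cd68 highest at -3.30 in 6 h replicate 2, which also had the highest score of iron handling genes at 0.0836, and 2 h replicate 1 had the highest score of cell cycle genes at 0.0789.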

How the results depend on the processing

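Under all 27 alternative settings 0 features passed the threshold in limma; the smallest adjusted p was 0.447 within slide 1 and 0.609 with array weights. The 24 genes named for their difference kept their sign under every setting in which they were tested. Only 15 of the 24 were tested when only probes above background on all 12 arrays were kept. Within slides the sign was fixed by the rule that chose them. The other settings refit the samples from which they were picked by p, so this is a description. Of the 94 named genes 21, and of the 31 list medians 24, changed sign under at least 1 setting. The medians of the astrocyte, circadian, HIF, interneuron, lysosome, microglia and radial glia lists did not. For lists too the settings refit the same samples, so this is a description. The lowest medians over the settings were 0.0062 for HIF, 0.00977 for circadian, 0.0041 for lysosome and 0.00977 for microglia lists. Those lay below the median of all features in the main fit (0.0142). At an unadjusted p under 0.05 the features numbered 366 (285 higher and 81 lower). They numbered 1802 (1469 and 333) within slide 1, 186 higher and 227 lower within slide 2, 794 (613 and 181) with array weights, 109 (71 and 38) with normexp background correction and 593 (203 lower) without the filter on dim probes; 150 were lower with quantile normalization. Leaving out each sample in turn gave 273 to 657, with 201 to 555 higher and 60 to 136 lower, the most without 24 h replicate 1; the lower ones were 124 without 12 h replicate 3 and 136 without 24 h replicate 3. The 5 features without overlap became 3713 within slide 1 and 2242 within slide 2, where fewer samples are compared, 8 without the filter and 10 to 57 with 1 sample left out. Intervals inside 1.5-fold held 52.1% of features within slide 2.

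With the replicate block, the features at that unadjusted p numbered 489 (385 higher and 104 lower), and 0 passed. Deviations of same-numbered samples correlated from -0.284 to 0.268 (18 pairs, median 0.131, 11 over 0.1), those of differently numbered samples with a median of -0.0857 (7 of 36 over 0.1). Not every pair was over 0.1 and 5 of 12 samples correlated best with their own number, so the numbers as labelled were not taken to pair the samples. With the numbers of 24 h replicates 1 and 3 exchanged, chosen after seeing the deposited table, 15 of 18 same-numbered pairs were over 0.1 (median 0.203) and 11 of 12 samples correlated best with their own number. By those numbers both late samples on slide 1 are replicate 1, while its early samples are replicates 1 and 2. The main fit has no replicate term, so its values can hold differences between replicates. The block with exchanged numbers gave 204 higher and 202 lower features, 0 passed, and the p53 median was 0.0306. Rrm2 (0.04), Gfap (0.01) and Bdnf (0.02) changed sign there.

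List medians within slide 1 were 0.0517 for p53, 0.0396 for chaperones, 0.131 for ribosomal and 0.0418 for GABA receptor genes. Within slide 2 they were 0.152 for antioxidant, -0.178 for cholesterol, -0.0961 for chaperone, 0.172 for glucocorticoid, 0.103 for FOXO, -0.0626 for apoptosis, -0.133 for ribosomal and -0.104 for GABA receptor genes. Array weights gave 0.122 for oligodendrocyte markers. The cause of these moves was not tested. Signal over background limits dim genes: 9 of the 24 named genes were not well above background on all 12 arrays.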
